A study of Mus musculus with 3 samples.

Results

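The 34 genes described here make fatty acids, triglycerides and cholesterol or control that synthesis in mouse liver, stomach and lung tissue. They were chosen by name from the pathway, with earlier results of these data known. They comprise 15 genes of the fatty acid arm, 14 genes of the sterol arm and 5 regulators, out of 27677 genes on the array design. All 34 were found on the design with 65 probes, and all 34 were measured on the liver array (25606 genes measured) and on the stomach array (25322 genes measured). For lung, 17 of the 34 had a spot in the authors' deposited table, and the other 17 have no lung value here. Me1 is written Mod1 in the scanner files, and Sc4mol now carries the symbol Msmo1.

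RNA came from tumours of mice transgenic for activation-induced cytidine deaminase (AID), an enzyme that deaminates cytosines in the antibody genes of B cells. There were 3 tissue pairs: a liver tumour with nontumour liver of the same AID transgenic mouse, a stomach tumour with nontumour stomach of the same AID transgenic mouse, and a lung tumour of an AID transgenic mouse with normal lung of a wild-type mouse. The transgene was thus carried by both tissues of the liver and stomach pairs, and by the tumour alone in the lung pair. The promoter that drives AID, the age of the mice and any pooling are not given in the sources used here. Each pair was hybridised on 1 array with 2 dyes, without replicates or exchanged dyes. No difference was therefore tested and no p-value is given; that number of arrays sets how precise any value can be.

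Fatty acid synthesis turns cytosolic citrate into acetyl-CoA, malonyl-CoA and palmitate, which is then elongated, desaturated and built into triglycerides. Cholesterol synthesis joins acetyl-CoA units through mevalonate and farnesyl diphosphate to squalene, and then closes and trims the ring system of lanosterol. The transcription factors SREBP-1 and SREBP-2 switch on both routes: Scap escorts them from the endoplasmic reticulum to the Golgi for cleavage, and the Insig proteins hold Scap back when sterol is plentiful. Hepatocytes are a main site of both routes, and the lung uses lipid synthesis for surfactant.

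The sources do not settle which dye held the tumour. The sample labels give Cy3 for the tumour, whereas the authors' deposited table heads its lists of Cy5-bright spots as up in the tumour. Ratios are therefore given as log2 of Cy5 over Cy3. Those headings and the series' design text make Cy5 the likely tumour channel; the dye labels make it the nontumour or wild-type tissue, with every sign turned. Signals are normalized intensities per channel in arbitrary units and are compared only between the channels of a probe. The error after ± is the SD between the probes of a gene or, with 1 probe, the error the scanner software gave that spot, and it covers measurement on 1 array only. For dim genes the probes can agree more closely than the scanner errors of their spots: the mean scanner error of a gene's probes was over 1.5-fold for 14 members in liver and 12 in stomach, and a value is called past its error only if it exceeds the larger of both errors.

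The labelled organs were checked against their markers. Hepatocyte genes were bright on the liver array, with Cps1, an enzyme of the urea cycle, at 22800 in Cy5 and 24800 in Cy3. On the stomach array Atp4b, a subunit of the gastric proton pump, had a signal of 1830 in Cy5 and 55000 in Cy3. Of 8 lung epithelium markers 6 had a lung spot in the authors' deposited table, all Cy3-high, against 12.4% of all genes. Among them the surfactant protein gene Sftpa1 had log2 ratios of -4.45 and -4.12. The share of gene spots that stood well above background was 90% in Cy5 and 84.1% in Cy3 on the liver array, and 88.8% in Cy5 and 82.3% in Cy3 on the stomach array. The tissues were bulk samples, so fewer cells of a type and less RNA per cell cannot be told apart.

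On the stomach array the lipid synthesis genes lay mostly on the Cy5 side, and on the liver array they lay around 0. In stomach 28 of 34 members had a log2 ratio above 0, against 50.2% of all genes, and their median was 0.36 against 0.00 for all genes. At least 1.5-fold (log2 ratio of 0.58 or more), 9 members were brighter in Cy5, against 3.23% of all genes, and 1 was brighter in Cy3, against 3.29%. At least 2-fold, 2 members were brighter in Cy5 (0.873% of all genes) and 0 in Cy3 (1.41%). These stomach counts depend on the scaling: median centring without loess gave 17 members at 1.5-fold in Cy5 and 11 at 2-fold in either direction, and the scanner software's ratio 16 and 4. In liver 15 of 34 members were above 0, against 52.9% of all genes, with a median of -0.02 against 0.01. Scd2 was the 1 liver member at least 1.5-fold brighter in Cy5 (0.851% of all genes), 0 members were so in Cy3 (0.508%), and 0 reached 2-fold in Cy5 (0.152%) or Cy3 (0.0703%). The members were brighter than most genes: their median log2 brightness over both channels was 8.22 in stomach and 7.67 in liver. Over all genes it was 7.20 and 7.14. The shares over all genes were not matched for brightness, and the background correction pulls the ratios of dim genes towards 0.

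**Figure D1:**
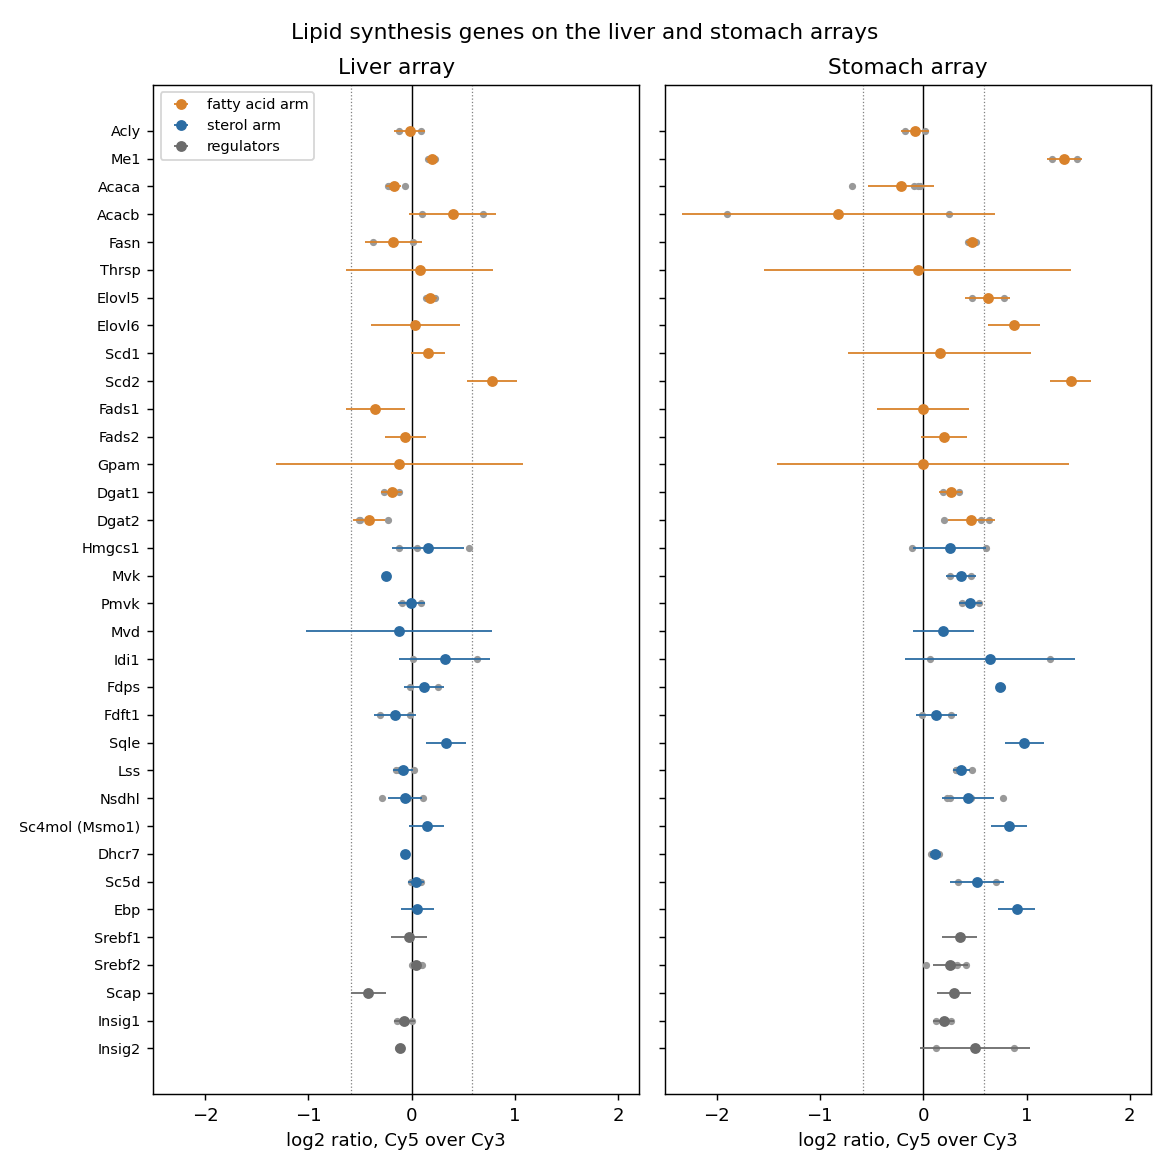
Log2 ratio of Cy5 over Cy3 (horizontal axis, no unit) for each of the 34 genes on the liver array (left panel) and the stomach array (right panel). Coloured points are gene values with their error (SD between probes or, with 1 probe, scanner error), small grey points are single probes, and dotted lines mark 1.5-fold. All 14 sterol genes lie right of 0 in stomach, between 0.12 and 0.98, and between -0.25 and 0.33 in liver.

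The sterol arm was more uniform than the fatty acid arm. In stomach all 14 genes were brighter in Cy5, with a median log2 ratio of 0.44, and 6 of them were past their error. In liver 7 of 14 were above 0, with a median of 0.02, and Sqle alone was past its error. Over all genes 50.2% were above 0 in stomach and 52.9% in liver. The share of all genes past their error was not computed, so those counts have no background to be read against. A property of these genes that played no role in their choice is the CCAAT box of their promoters, the letters bound by the factor NF-Y, which is known to act together with SREBP at sterol gene promoters. In RefSeq windows of build GRCm38.p6, running from 250 bases before to 50 bases after a gene start, CCAAT on either strand was present in all 11 sterol genes that had a window, against 41.1% of 27025 genes. Over single windows it was present in 11 of 14, against 37.4% of 32851 windows. The 4 sterol promoters with the most CCAAT boxes are shown, in gene orientation from 5′ to 3′. A link between the boxes and the ratios was not tested. Capitals mark CCAAT, which reads ATTGG on the other strand, and in Hmgcs1 also the looser sterol response element TCACNCCAC.
Mvk (chr5:114444019-114444318, plus strand, 5 CCAAT boxes): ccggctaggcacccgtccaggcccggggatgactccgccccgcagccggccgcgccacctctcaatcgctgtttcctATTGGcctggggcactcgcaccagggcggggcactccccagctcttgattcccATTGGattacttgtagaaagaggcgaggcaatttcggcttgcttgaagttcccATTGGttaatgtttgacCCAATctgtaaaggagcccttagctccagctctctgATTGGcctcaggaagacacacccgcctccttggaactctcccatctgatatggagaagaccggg
Hmgcs1 (chr13:119690101-119690400, plus strand, 4 CCAAT boxes): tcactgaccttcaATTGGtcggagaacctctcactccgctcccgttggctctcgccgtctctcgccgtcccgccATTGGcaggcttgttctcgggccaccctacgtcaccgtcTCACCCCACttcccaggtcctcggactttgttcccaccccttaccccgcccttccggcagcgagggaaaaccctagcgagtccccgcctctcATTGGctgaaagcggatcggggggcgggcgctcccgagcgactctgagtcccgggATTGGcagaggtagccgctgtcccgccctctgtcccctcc
Nsdhl (chrX:72918271-72918570, plus strand, 4 CCAAT boxes): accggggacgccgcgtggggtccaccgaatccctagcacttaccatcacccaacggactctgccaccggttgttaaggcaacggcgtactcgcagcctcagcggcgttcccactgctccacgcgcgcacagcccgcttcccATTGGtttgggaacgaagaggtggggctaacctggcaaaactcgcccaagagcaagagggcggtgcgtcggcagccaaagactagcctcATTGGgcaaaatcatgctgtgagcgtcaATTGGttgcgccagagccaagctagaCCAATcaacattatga
Msmo1 (chr8:64733529-64733828, minus strand, 3 CCAAT boxes): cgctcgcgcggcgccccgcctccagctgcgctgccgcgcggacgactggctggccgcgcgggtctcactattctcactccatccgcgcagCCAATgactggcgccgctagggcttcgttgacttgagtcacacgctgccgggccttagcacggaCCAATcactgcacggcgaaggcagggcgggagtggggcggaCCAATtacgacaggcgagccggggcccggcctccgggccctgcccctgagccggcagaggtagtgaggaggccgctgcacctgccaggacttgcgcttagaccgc

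The 27 CCAAT boxes of the sterol arm lay mostly just before the gene start. Of these, 24 started before it, with a median distance of -55 bases and a range of -237 to 34. The GC box GGGCGG, a letter pattern bound by Sp1 family factors, was present in 10 of 11 sterol genes, against 38.2% of all genes. The E-box CACGTG was present in 2 of 11, against 8.09%. The looser sterol response element TCACNCCAC was in Hmgcs1 alone among the members' windows, against 1.44% of all genes. The classical element SRE-1, which extends that pattern, was in no member window, against 0.0999%. No CCAAT box shared letters with any of these other patterns. A match describes letters in a window and is not a measured binding site, and Fdft1, Fdps and Sqle had no window.

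**Figure D2:**
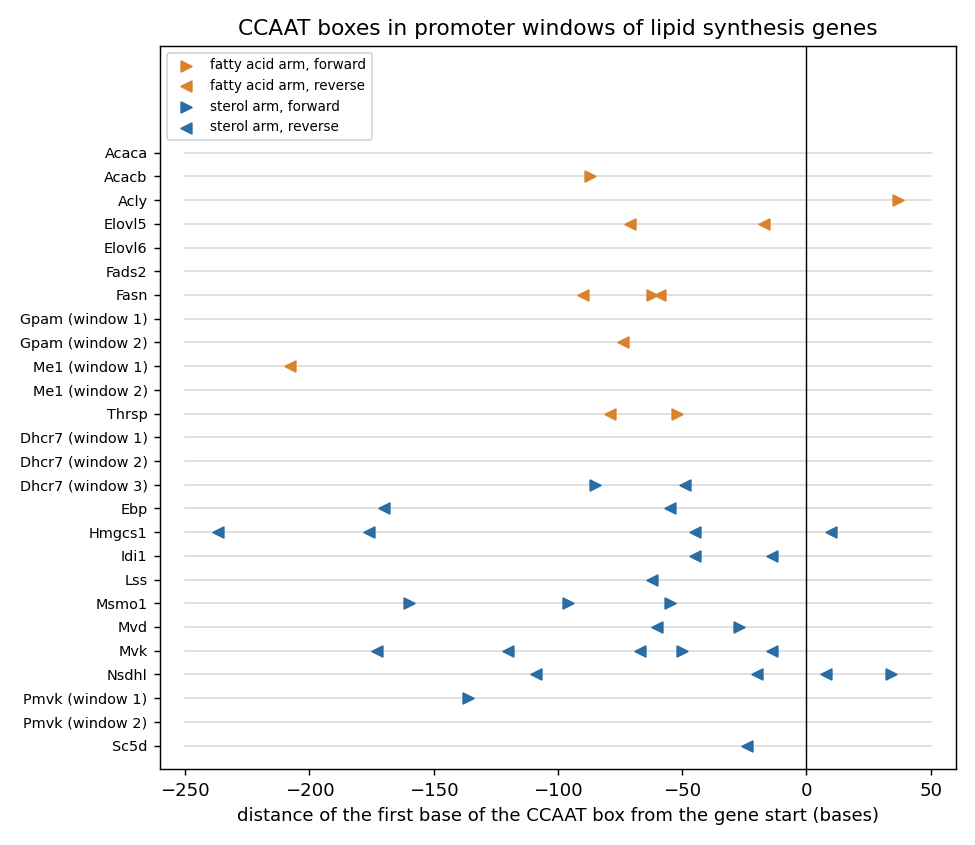
Distance in bases of the first base of each CCAAT box from the gene start (horizontal axis) for the fatty acid genes (orange, upper rows) and sterol genes (blue, lower rows) that had a promoter window. Triangles pointing right stand for CCAAT in gene orientation and triangles pointing left for its reverse complement; grey lines are the windows, and a gene with several windows has several rows. Mvk has 5 boxes, and every sterol gene has a box in at least 1 window.

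The early steps, to farnesyl diphosphate, had 6 members, all above 0 in stomach. Fdps, which makes farnesyl diphosphate, had a signal of 553 in Cy5 and 330 in Cy3 on the stomach array, and 119 in Cy5 and 110 in Cy3 on the liver array. Its log2 ratio was 0.75 ± 0.02 in stomach (1.68-fold, 2 probes) and 0.12 ± 0.19 in liver, so the Cy5 excess was past its error in stomach and within it in liver. Idi1, the isomerase of isopentenyl diphosphate, had 614 in Cy5 and 391 in Cy3 in stomach, and 252 in Cy5 and 202 in Cy3 in liver. Its 2 probes disagreed: the brighter had ratios of 1.23 in stomach and 0.63 in liver, and the dimmer 0.07 and 0.01. The scanner file places both Idi1 probes on chromosome 2, while the RefSeq promoter of Idi1 lies on chromosome 13, so this value is uncertain.

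Pmvk, the phosphomevalonate kinase, had 865 in Cy5 and 630 in Cy3 in stomach (0.46 ± 0.11), against a ratio of 0.00 ± 0.13 in liver. Mvk, the mevalonate kinase with the 5 CCAAT boxes printed above, was dim. It had 166 in Cy5 and 129 in Cy3 in stomach (0.36 ± 0.15), and 83.7 in Cy5 and 99.4 in Cy3 in liver (-0.25 ± 0.02). Its liver probes agreed, but their scanner errors were 1.42 and 1.15, so the liver value was within its error. The stomach value was within its error as well, with scanner errors of 0.62 and 0.54. Hmgcs1, which makes HMG-CoA, had a stomach ratio of 0.26 ± 0.36 and a liver ratio of 0.16 ± 0.35 over 3 probes. Its bright probe, with 1190 in Cy5 and 813 in Cy3 in liver, had a ratio of 0.55 there and 0.27 in stomach. Mvd, which decarboxylates mevalonate diphosphate, had 0.20 ± 0.30 in stomach and -0.12 ± 0.90 in liver, both within the scanner error.

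Squalene and lanosterol are made by Fdft1, Sqle and Lss. Sqle, the squalene epoxidase, was the sterol gene with the highest ratio on both arrays. It had 1130 in Cy5 and 572 in Cy3 in stomach, a log2 ratio of 0.98 ± 0.19 (1.97-fold, 1 probe), and 531 in Cy5 and 421 in Cy3 in liver, a ratio of 0.33 ± 0.19. Lss, the lanosterol synthase, had 183 in Cy5 and 142 in Cy3 in stomach (0.37 ± 0.08, 3 probes) and -0.09 ± 0.10 in liver. The scanner errors of its stomach probes were 0.62, 0.28 and 0.75, so the stomach value was within its error. Fdft1, the squalene synthase, had 0.13 ± 0.20 in stomach and -0.16 ± 0.20 in liver, within the SD between its probes on both arrays.

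The last steps, from lanosterol to cholesterol, had 5 members, of which Msmo1, Sc5d and Ebp were past their error in stomach. Ebp, a sterol isomerase, had 3550 in Cy5 and 1900 in Cy3 in stomach (0.90 ± 0.18, 1.87-fold), and 5720 in Cy5 and 5500 in Cy3 in liver (0.06 ± 0.16). Msmo1, the sterol C4-methyl oxidase, had 2520 in Cy5 and 1420 in Cy3 in stomach (0.83 ± 0.18, 1.78-fold), and 1040 in Cy5 and 938 in Cy3 in liver (0.15 ± 0.17). Both genes were well above background in each channel of both arrays, with the Cy5 excess past their error in stomach and within it in liver. Sc5d, the lathosterol oxidase, had 0.52 ± 0.26 in stomach and 0.04 ± 0.07 in liver. Nsdhl, which acts with Msmo1 in removing the C4 methyl groups, had 0.43 ± 0.25 in stomach over 4 probes, between 0.24 and 0.77, and -0.07 ± 0.16 in liver. Dhcr7, the enzyme of the last step, had the lowest stomach ratio of the arm, 0.12 ± 0.05, and -0.07 ± 0.00 in liver. The scanner errors of its probes were 0.22 and 1.37 in stomach and 0.18 and 0.84 in liver, so both values were within their error.

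The fatty acid arm was mixed. In stomach 9 of 15 genes were above 0 with a median of 0.20, 4 reached 1.5-fold to the Cy5 side and 1 to the Cy3 side, and 6 were past their error to the Cy5 side and 0 to the Cy3 side. In liver 7 of 15 were above 0, with a median of -0.02. Over all genes in stomach, 3.23% reached 1.5-fold to the Cy5 side and 3.29% to the Cy3 side. The share of all genes past their error was not computed. The genes with the highest ratios were a desaturase, Scd2, and the NADPH-supplying malic enzyme, Me1.

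Scd2, a stearoyl-CoA desaturase that makes monounsaturated fatty acids and is low in adult liver of mice, had 2690 in Cy5 and 1000 in Cy3 in stomach, and 401 in Cy5 and 234 in Cy3 in liver. Its log2 ratio was 1.43 ± 0.20 in stomach (2.69-fold) and 0.78 ± 0.24 in liver (1.71-fold), from 1 probe that the scanner file places on chromosome 19 at 44200407 to 44200466 (genome build not given). It was the highest member on both arrays. Its paralog Scd1, the main liver desaturase, had 2960 in Cy5 and 2650 in Cy3 in liver (0.16 ± 0.16), but only 109 in Cy5 and 97.9 in Cy3 in stomach (0.16 ± 0.89). The Scd1 signal in stomach was so dim that its error spans ratios from the Cy3 to the Cy5 side. Of the other desaturases, Fads2 had 0.20 ± 0.22 in stomach and -0.06 ± 0.20 in liver, and Fads1 -0.00 ± 0.45 in stomach and -0.35 ± 0.29 in liver.

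Me1 had 1340 in Cy5 and 520 in Cy3 in stomach, and 112 in Cy5 and 98.1 in Cy3 in liver. Its ratio was 1.37 ± 0.17 in stomach (2.58-fold) and 0.19 ± 0.05 in liver, with stomach values of 1.25 and 1.49 for its 2 probes on chromosome 9; in liver those probes were dim, with scanner errors of 0.78 and 1.13. Acly, which makes cytosolic acetyl-CoA from citrate, had -0.08 ± 0.13 in stomach and -0.02 ± 0.15 in liver. The Acly probes were dim in stomach, with scanner errors of 0.42 and 1.54, so a small difference could go unseen. The Cy5 excess of Me1 in stomach was not seen in Acly.

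The elongases Elovl5 and Elovl6, which lengthen polyunsaturated and saturated fatty acids, were brighter in Cy5 in stomach. Elovl6 had 422 in Cy5 and 229 in Cy3 (0.88 ± 0.25, 1.84-fold), and Elovl5 had 357 in Cy5 and 232 in Cy3 (0.62 ± 0.22). In liver Elovl5 had 1280 in Cy5 and 1130 in Cy3 (0.18 ± 0.06), and Elovl6 157 in Cy5 and 154 in Cy3 (0.03 ± 0.43).

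The genes that make malonyl-CoA and palmitate did not move together. Fasn, the fatty acid synthase, had 987 in Cy5 and 713 in Cy3 in stomach (0.47 ± 0.05), and 532 in Cy5 and 602 in Cy3 in liver (-0.18 ± 0.27). Acaca, the main cytosolic acetyl-CoA carboxylase, had -0.22 ± 0.32 in stomach and -0.18 ± 0.08 in liver over 4 probes, within its error on both arrays. Acacb, the carboxylase at the mitochondrial surface whose malonyl-CoA restrains fatty acid oxidation, was the lowest member in stomach at -0.82 ± 1.52. Its bright probe, which the file places on chromosome 5 at 113472402 to 113472462, had 314 in Cy5 and 1170 in Cy3 in stomach (-1.89), and 465 in Cy5 and 287 in Cy3 in liver (0.69). The dim probe of Acacb had 0.25 in stomach, with 75.5 in Cy5 and 63.5 in Cy3, and 0.10 in liver, so the gene's value rests on the bright probe. Thrsp, a nuclear protein that accompanies lipogenesis, had -0.05 ± 1.48 in stomach and 0.08 ± 0.71 in liver, signals too dim to show a difference.

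For Fasn, the promoter window held 3 CCAAT boxes, of which a pair shares letters in a palindrome; it is shown as the fatty acid promoter with the most boxes.
Fasn (chr11:120824498-120824797, minus strand, 3 CCAAT boxes): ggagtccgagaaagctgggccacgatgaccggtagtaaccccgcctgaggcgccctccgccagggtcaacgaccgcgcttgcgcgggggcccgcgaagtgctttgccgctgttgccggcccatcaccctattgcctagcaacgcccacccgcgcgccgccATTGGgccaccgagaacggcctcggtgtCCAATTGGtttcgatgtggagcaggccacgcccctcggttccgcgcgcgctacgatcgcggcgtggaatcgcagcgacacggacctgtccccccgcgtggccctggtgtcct
CCAAT was present in 7 of the 10 fatty acid genes with a window, and the GC box in 4 of 10, against 41.1% and 38.2% of all genes. Dgat1, Dgat2, Fads1, Scd1 and Scd2 had no window. Of the 5 regulators 4 held CCAAT and 5 the GC box.

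Dgat2 and Dgat1 complete triglyceride synthesis, and Gpam starts it at glycerol phosphate. Dgat2 lay on opposite sides of 0 on the arrays over 3 probes. It had 591 in Cy5 and 428 in Cy3 in stomach (0.47 ± 0.23), and 965 in Cy5 and 1280 in Cy3 in liver (-0.41 ± 0.16). Dgat1 had 0.27 ± 0.11 in stomach and -0.20 ± 0.10 in liver, both within the scanner errors of its probes. Gpam was dim, at -0.00 ± 1.42 in stomach and -0.12 ± 1.20 in liver.

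The 5 regulators were all above 0 in stomach, with a median of 0.30, and none reached 1.5-fold on either array. In liver 1 of 5 was above 0, with a median of -0.07. Srebf1 and Scap were past their error in stomach, and Scap alone in liver. Srebf1, which encodes SREBP-1, had 1340 in Cy5 and 1050 in Cy3 in stomach (0.35 ± 0.17), and 825 in Cy5 and 841 in Cy3 in liver (-0.03 ± 0.17). Srebf2, which encodes SREBP-2, had 0.26 ± 0.17 in stomach and 0.04 ± 0.05 in liver over 4 probes. Scap, the escort protein, had 2380 in Cy5 and 1930 in Cy3 in stomach (0.30 ± 0.17), and 3690 in Cy5 and 4940 in Cy3 in liver (-0.42 ± 0.17), the lowest liver ratio of all members. Median centring without loess put the Scap liver ratio at -0.04, so its size and rank depend on the scaling. Insig1 had 0.20 ± 0.10 in stomach and -0.07 ± 0.10 in liver. Insig2 had 0.50 ± 0.53 in stomach, where its probes gave 0.87 and 0.12, and -0.12 ± 0.02 in liver, with 2 of its 3 probes measured.

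Set side by side, 30 of the 34 members had a higher log2 ratio on the stomach array than on the liver array, with a median difference of 0.45; over the 24766 genes measured on both arrays this held for 48.9%, with a median difference of -0.01. For the sterol arm this held for 14 of 14 genes, with a median difference of 0.47, and for the fatty acid arm for 11 of 15, with 0.35. Across the 14 sterol genes the ratios of the arrays went together (Pearson r = 0.69, Spearman rho = 0.71), so that the genes highest in stomach, such as Sqle, also ranked high in liver. Across the 15 fatty acid genes r was 0.33 and rho 0.20, across all 34 members both were 0.38, and across all 24766 genes r was 0.10 and rho 0.20. These values describe genes that share arrays, dyes and probes, and are not a test.

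**Figure D3:**
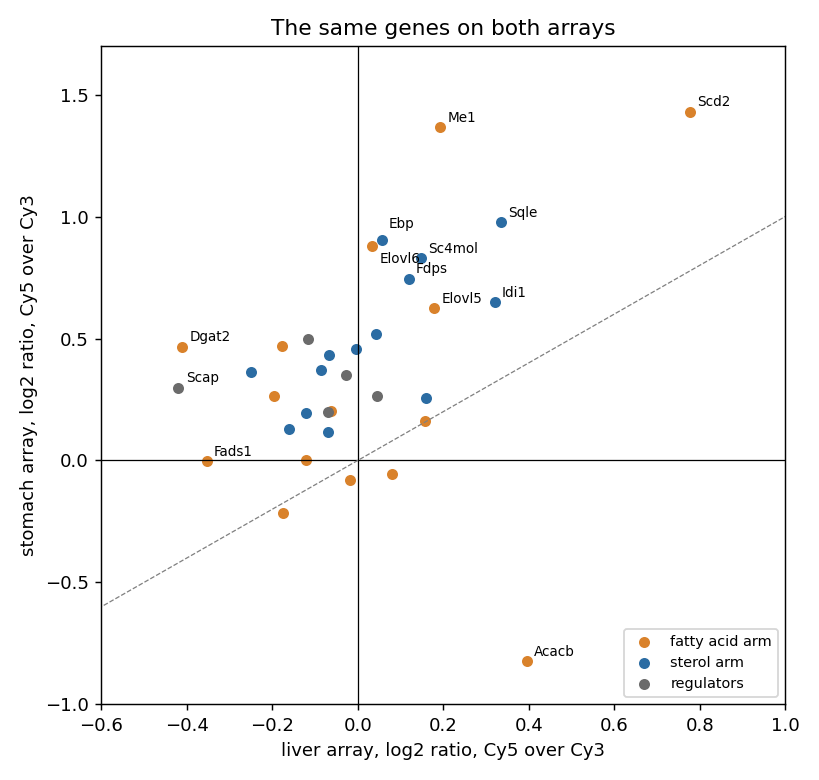
Log2 ratio of Cy5 over Cy3 on the stomach array (vertical axis) against that on the liver array (horizontal axis) for the 34 genes, coloured by arm. The dashed line marks equal ratios, and 30 points lie above it. Scd2 and Me1 are the highest in stomach and Acacb is the lowest.

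On the stomach array, dividing cell genes lay on the Cy5 side and most tissue marker groups on the Cy3 side. Over all genes 50.2% had a ratio above 0. All 10 dividing cell genes were brighter in Cy5 (median log2 ratio 0.96, median signal 655 in Cy5 and 236 in Cy3), among them the proliferation marker Mki67 at 1.53. Of 7 measured gastric gland and pit markers 6 were brighter in Cy3 (median -4.13, median signal 1830 in Cy5 and 55000 in Cy3). Squamous epithelium markers had a median of -1.86, with 8 of 8 below 0 (median signal 395 in Cy5 and 1680 in Cy3), and smooth muscle markers of -1.82, with 5 of 6 below 0 (446 in Cy5 and 1240 in Cy3). Of 11 adipocyte markers 8 were below 0 (median -0.29, median signal 137 in Cy5 and 273 in Cy3), with Cfd, the protease adipsin, at -3.82, Lpl, the lipoprotein lipase, at -2.77, and Fabp4, a fatty acid carrier, at -1.54. Of 6 macrophage markers 4 were above 0 (median 0.06). The part of these tissue differences in the lipid gene ratios was not tested.

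On the liver array the medians of those groups lay nearer 0, and 52.9% of all genes were above 0. Dividing cell genes had a median of 0.05 with 7 of 10 above 0, adipocyte markers one of -0.01 with 5 of 11 above 0, and hepatocyte markers one of -0.15 with 2 of 8 above 0. Single hepatocyte markers differed more than most lipid genes: Tdo2, which degrades tryptophan, had 1840 in Cy5 and 3610 in Cy3 (-0.97 ± 0.13), and Ttr, the thyroxine carrier transthyretin, 1030 in Cy5 and 717 in Cy3 (0.53 ± 0.18). The authors' deposited table lists 2 of 10 hepatocyte markers as Cy5-high and 2 as Cy3-high in liver, against 1.75% and 1.36% of all genes. The median of the gastric markers there was 0.05, of the squamous markers 0.01, of the lung epithelium markers 0.02, of the smooth muscle markers 0.07 and of the macrophage markers -0.03.

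In the authors' deposited table, which lists spots from a 1.35-fold difference in liver and stomach, 15 members were Cy5-high in stomach, against 5.17% of all genes, and Acacb alone was Cy3-high, against 4.32%. The 15 were 6 fatty acid genes (Me1, Fasn, Elovl5, Elovl6, Scd2 and Dgat2), 8 sterol genes (Pmvk, Idi1, Fdps, Sqle, Nsdhl, Msmo1, Sc5d and Ebp) and Insig2. For liver the authors' deposited table lists Acacb, Scd2, Hmgcs1 and Idi1 as Cy5-high (1.75% of all genes) and Dgat2 as Cy3-high (1.36%). The lists rest on the scanner software's error model for 1 spot, and they describe the same arrays as the ratios above.

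The lung lists of the authors' deposited table start at 2-fold. In them 12 members were Cy5-high, against 6.84% of all genes, and 5 were Cy3-high, against 12.4%. The arms split: 8 of 14 sterol genes were listed as Cy5-high and 0 as Cy3-high, while 3 of 15 fatty acid genes were Cy5-high and 5 Cy3-high. By probes, the sterol arm had 11 of 28 in the Cy5-high list (5.48% of all probes) and 0 in the Cy3-high list (9.74%), and the fatty acid arm had 6 and 5 of 26. Srebf1 was the 1 listed regulator.

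**Figure D4:**
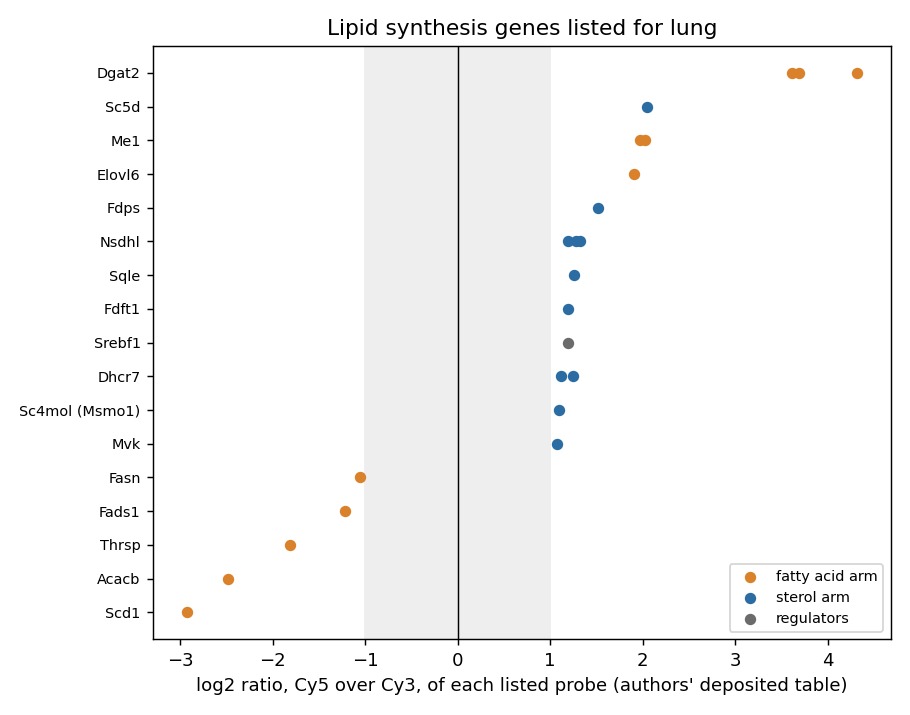
Log2 ratio of Cy5 over Cy3 (horizontal axis) of each lung probe of the 34 genes in the authors' deposited table, 1 point per probe, coloured by arm; genes run from the highest to the lowest. The grey band marks the ratios below 2-fold that the lung lists leave out. Sterol genes lie on the right alone, between 1.07 and 2.05, and fatty acid genes on both sides.

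Among the sterol genes in the authors' deposited table, Sc5d had the highest lung ratio, 2.05 (4.14-fold, 1 of its 2 probes). Fdps followed with 1.52 (2.87-fold), Sqle with 1.26 (2.40-fold) and Fdft1 with 1.20 (2.29-fold), as the authors' deposited table gives them. Nsdhl was listed there with 3 of its 4 probes at 1.32, 1.28 and 1.19, and Dhcr7 with both probes at 1.25 and 1.12, so more than a single spot stands behind these genes. Msmo1, at 1.09, and Mvk, at 1.07, lay near the 2-fold start of the authors' deposited table. Hmgcs1, Pmvk, Mvd, Idi1, Lss and Ebp were not listed. Srebf1 had 1.19 (2.28-fold) in the authors' deposited table.

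Of the fatty acid genes, Dgat2, which makes triglycerides, had the highest lung ratio of all members in the authors' deposited table, with 4.32, 3.69 and 3.62 for its 3 probes (mean 3.88, 14.7-fold). Me1 was listed with both probes in the authors' deposited table, at 2.03 and 1.98 (4.01-fold on average), and Elovl6 at 1.91 (3.76-fold). To the Cy3 side, the authors' deposited table lists Scd1 at -2.93 (7.60-fold), Acacb at -2.48 (5.60-fold), Thrsp at -1.81 (3.52-fold), Fads1 at -1.22 (2.32-fold) and Fasn at -1.05 (2.07-fold). Acacb and Fasn were each listed with 1 of their 2 probes, and Fasn lay near the 2-fold start. Acaca, Acly, Elovl5, Scd2, Fads2, Gpam and Dgat1 were not listed, and neither were Srebf2, Scap, Insig1 and Insig2.

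The 12 members listed as Cy5-high for lung in the authors' deposited table were all above 0 in stomach, against 78.6% of the 1872 genes of that list measured in stomach, and 0 were below, against 21.4%. Of these 12, Mvk, Fdft1, Nsdhl and Dhcr7 were within their error in stomach. The 5 listed as Cy3-high were below 0 in stomach in 3 cases (Acacb, Thrsp and Fads1), against 60.8% of 3328 genes, and above 0 for Fasn and Scd1, against 39.2%. Of these 5 only Fasn was past its error: Acacb had -0.82 ± 1.52, Thrsp -0.05 ± 1.48 and Fads1 -0.00 ± 0.45. Tissue markers moved in lung as well. Over all genes 12.4% were Cy3-high and 6.84% Cy5-high for lung. For lung, the authors' deposited table has 6 of 8 lung epithelium markers and 4 of 6 smooth muscle markers as Cy3-high and 0 of either as Cy5-high. Of 11 adipocyte markers, 4 were Cy3-high for lung in the authors' deposited table, with Cfd at -5.55 and Adipoq at -2.43, and 3 Cy5-high, with Fabp4 at a mean of 3.16 over 3 probes and Cidea at 2.48. Markers of other organs and dividing cells were Cy5-high in the authors' deposited table for lung as well: 3 of 10 hepatocyte markers (Alb at 1.55, Apob at 1.72 and F2 at 1.54), 2 of 10 dividing cell genes, 2 of 8 squamous markers and, of 8 gastric markers, Gkn2 at 3.31. The 1 listed of 6 macrophage markers, Lyz2, was Cy3-high at -3.10 in the authors' deposited table. The part of these tissue differences in the lung ratios of the members was not tested.

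**Figure D5:**
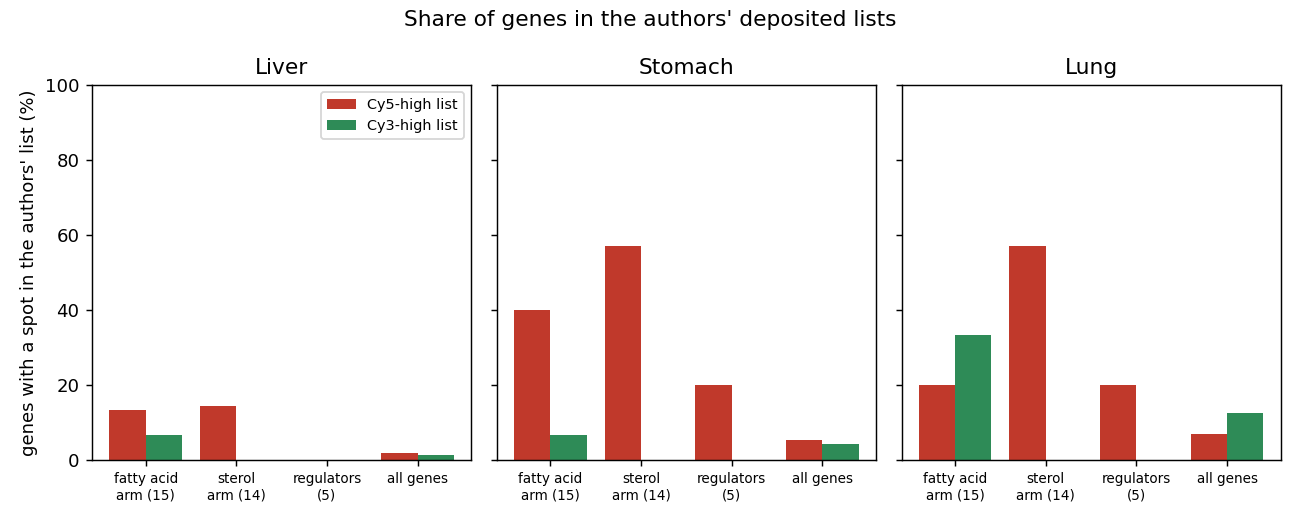
Share in percent (vertical axis, from 0) of the genes of each arm and of all genes on the design that have a spot in the authors' Cy5-high list (red, left bars) or Cy3-high list (green, right bars), by organ. In stomach and lung 8 of the 14 sterol genes stand in the Cy5-high list and 0 in the Cy3-high list; the lung lists start at 2-fold and the others at 1.35-fold.

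Of 16 further sterol pathway genes, which include enzymes outside the 34 and genes of cholesterol uptake and export, 12 were above 0 in stomach (median 0.18). In liver 8 were above 0 (median -0.02). Over all genes 50.2% were above 0 in stomach and 52.9% in liver. A 1.5-fold difference was reached in stomach by 3 to the Cy5 side and 1 to the Cy3 side, against 3.23% and 3.29% of all genes. Cyp51, the lanosterol demethylase, had 0.70 ± 0.33 in stomach, and Stard4, a cholesterol carrier, 0.71 ± 0.15. Tm7sf2, a sterol reductase, had 593 in Cy5 and 278 in Cy3 in stomach (1.09 ± 0.23), but was the lowest of the list in liver at -0.68 ± 0.18. To the Cy3 side in stomach lay Abcg1, which exports cholesterol from cells, at -0.75 ± 0.34.

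For lung, the authors' deposited table lists 7 of these 16 as Cy5-high and 2 as Cy3-high, against 6.84% and 12.4% of all genes. Cyp51 was listed there with 3 probes at a mean of 2.05. Stard4 had a mean of 2.24 in the authors' deposited table, Tm7sf2 1.72, Hsd17b7, a sterol ketoreductase, 1.09 and Soat2, an enzyme that esterifies cholesterol, 1.05. Abcg1 at -1.29 and Soat1, the esterifying enzyme of macrophages, at a mean of -2.04 were Cy3-high in the authors' deposited table. The exporter Abcg1 was thus Cy3-high in lung and below 0 in stomach.

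Of 30 further fatty acid pathway genes, 19 were above 0 in stomach (median 0.15) and 14 in liver (median -0.05). Over all genes these shares were 50.2% and 52.9%. A 1.5-fold difference was reached in stomach by 6 to the Cy5 side and 3 to the Cy3 side, against 3.23% and 3.29% of all genes. In liver it was reached by 0 in either direction, against 0.851% in Cy5 and 0.508% in Cy3. Mogat2, which acylates monoacylglycerol, had 853 in Cy5 and 277 in Cy3 in stomach (1.62 ± 0.24), while Mogat1, its paralog, had 133 in Cy5 and 367 in Cy3 (-1.47 ± 0.34). Of the acyl-CoA synthetases, Acsl3 had 1.14 ± 0.22, Acsl4 0.73 ± 0.13 and Acsl5 0.69 ± 0.18, while Acsl1 had -1.21 ± 0.67. Pparg, the nuclear receptor that drives fat storage, had 2250 in Cy5 and 1090 in Cy3 (1.05 ± 0.18), and Elovl4, an elongase of very long fatty acids, 71.4 in Cy5 and 258 in Cy3 (-1.85 ± 0.59).

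For lung, the authors' deposited table gives 5 of the 30 as Cy5-high and 8 as Cy3-high, against 6.84% and 12.4% of all genes. Mogat2 had 4.62, Acsl3 1.57 and Pparg 1.81 in the authors' deposited table, and Mogat1 had -1.66 and Acsl1 a mean of -1.31. Acsl4 lay on the other side than in stomach, at -1.17 in the authors' deposited table, and Acsl5 was not listed. Agpat2, an acyltransferase of the same route, had a mean of 2.28 and the elongase Elovl7 2.88 in the authors' deposited table, while another elongase, Elovl1, had -1.49.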

How the data were processed

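For each tissue 500 ng of total RNA was amplified and dyed, per the labels' protocols, and Agilent Feature Extraction 8.5.1.1 read the scans, per the submitters' processing notes. Per the file headers, the deposited intensity columns hold each spot's mean and local background, and the deposited log10 ratio is that of Cy5 over Cy3 with an error and a p-value for 1 spot from the software's error model; this deposited p-value was not used as a test. The authors' deposited table stacks lists of log10 ratios, given here as log2; the lists equalled the scanner ratios for liver and stomach, and lung spots were joined to the design by spot number. The lung scanner values were not analysed here.

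Ratios were computed in limma 3.58.1 (R 4.3.3) after a normexp background correction (offset 50) and a loess fit within each array, a procedure tested on simulated data. The simulated differences were of at least 2-fold and in bright probes, so the simulation does not cover dim probes or smaller differences. Control spots had weight 0 and were left out, as were outlier spots. A probe entered if either channel stood well above background and if it was not saturated in both, and a gene is the mean over its probes. The offset pulls the ratios of dim probes towards 0. Signals per channel are those after normexp and loess, as geometric means over probes. Probes were named by a RefSeq table of GRCm38.p6, which gave a current symbol to 79.4% of 41174 probes; no source used here states the build behind the scanner files' probe positions. Further steps used Python 3.11.15 with pandas 2.3.3. No test was made with 1 array per organ. All 34 members are named; genes of the other lists are named where they reach a log2 ratio of 1 in size on an array, are highest or lowest of their list, or mark an organ. Some genes that meet this rule are not reported here. The members and lists were chosen with earlier results of these data known.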

Additional observations from a re-analysis of the deposited data

Results flagged for a closer look

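For 3 genes the probe listed in the authors' deposited table lay on opposite sides of 0 in different organs. With 1 array per organ these differences were not tested. Acacb, the acetyl-CoA carboxylase of the mitochondrial surface, had 0.89 in liver, -2.09 in stomach and -2.48 in lung for the same probe of the authors' deposited table. Dgat2, which makes triglycerides, had -0.55 in liver, 0.62 in stomach and 3.62 in lung there. Fasn, the fatty acid synthase, had 0.53 in stomach and -1.05 in lung in the authors' deposited table. That lung value lies near the 2-fold start of the lung lists, and 1 of the 2 Fasn probes was listed. The lung pair differs from the others in that its non-tumour tissue came from a wild-type mouse.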

How the results depend on the processing

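Over 6 other settings, no gene value of at least 1.5-fold changed sign. No arm median on the liver or stomach array reached 1.5-fold in the main setting. The median of the sterol arm stayed between 0.44 and 0.69 in stomach and between 0.01 and 0.07 in liver, and that of the fatty acid arm between 0.19 and 0.41 and between -0.08 and 0.07. The liver medians near 0 turned in sign for the fatty acid arm and for the regulators, which ranged from -0.12 to 0.09. All 14 sterol genes and 5 regulators kept their side of 0 in stomach under every one of these settings, as did 13 of 15 fatty acid genes; the exceptions were Fads1 and Gpam, both at -0.00. In liver fewer kept their side: 9 of 14 sterol genes, 12 of 15 fatty acid genes and 3 of 5 regulators, with Insig2 going to 0.25 and Dhcr7 to 0.06 under median centring. The lowest liver values shrank there too, Scap from -0.42 to -0.04 and Dgat2 from -0.41 to -0.09. Median centring without loess moved the most: the regulator median in stomach became 0.82, with the median of all genes at 0.06, and 29 of 68 gene values moved by more than both their error and the array's pooled SD between probes. Counts of members at a fold depended on the setting. With median centring, 17 members were at least 1.5-fold brighter in Cy5 in stomach and 11 at least 2-fold in either direction, and in liver 2 and 1. With the scanner software's ratio these stomach counts were 16 and 4. An offset of 1 and the brightest probe of a gene each gave 4 stomach members at 2-fold, and the brightest probe gave 3 liver members at 1.5-fold in Cy5. Keeping listed spots of at least 2-fold alone left 6 Cy5-high members in stomach, and 0 Cy5-high and 0 Cy3-high members in liver. No paired analysis was possible because each organ had 1 array. Dim probes limit 14 members in liver and 12 in stomach, among them Thrsp, Gpam, Nsdhl and Insig1 on both arrays. Hmgcs1 is counted on both arrays through its dim probes, while its bright probe had scanner errors of 0.17 in liver and 0.16 in stomach.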

Other observations

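Genes of fatty acid oxidation, the route opposite to synthesis, were centred on 0 on both arrays. Of 14 such genes 7 were above 0 in stomach (median 0.00) and 5 in liver (median -0.04). Over all genes these shares were 50.2% and 52.9%. A 1.5-fold difference was reached in stomach by 1 to each side, against 3.23% of all genes in Cy5 and 3.29% in Cy3. Cpt2, which hands acyl groups to the mitochondrial matrix, had 1760 in Cy5 and 1130 in Cy3 there (0.64 ± 0.17), and Ppara, the nuclear receptor that drives oxidation, had 78.5 in Cy5 and 145 in Cy3 (-0.89 ± 0.91). In lung the authors' deposited table lists 2 of the 14 as Cy5-high, among them the peroxisomal enzyme Ehhadh at 1.5, and 0 as Cy3-high. Over all genes these shares were 6.84% and 12.4%.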
